A study of Danio rerio with 4 samples.

Results

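The 8 genes described here are the photoreceptor genes *crx*, *otx5*, *rho* and *rcv1*, the bipolar cell gene *vsx1*, and *atoh7*, *rx1* and *rx2*. The last 3 are genes of retinal precursors, but not of these alone, since *rx1* is also a factor of photoreceptors. They were picked by gene symbol, with earlier results of these data known. Each symbol was found in 1 of the 27423 transcripts of the deposited table. RNA of pooled whole zebrafish embryos at 48 hours post fertilization (hpf) was sequenced in 4 libraries, 1 for each condition. The groups were *goosepimples* (*gsp*) mutants, which are *myosin Vb* (Myovb) -/-, *gsp* siblings, *romeharsha* (*rhs*) mutants, which are *romeharsha* -/-, and *rhs* siblings. In both lines the siblings were heterozygous and homozygous wild-type embryos together, so the sibling pools carry the mutant allele too. All embryos came from crosses of heterozygous parents and received no treatment, and the mutants were separated from their siblings at 43 hpf. The labels give 20 embryos per group from 3 clutches per mutant, and the methods of the paper give another, larger number of embryos. The gene mutated in *rhs* is unknown.

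The vertebrate retina is built from a pool of dividing progenitors that give rise to ganglion cells first and to photoreceptors and bipolar cells later. Homeodomain factors of the Rx family mark the early eye field and its progenitors. Factors of the Otx family, to which Crx and Otx5 belong, turn on the genes of light detection in photoreceptors of the retina and of the pineal organ, a light-sensitive outgrowth of the forebrain. In zebrafish at 48 hpf the ganglion cells are already formed and the first photoreceptors are only beginning to make visual pigment.

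Every value below is an estimated count per transcript, as deposited, with no scaling between libraries. The library totals ran from 106188690 in *gsp* mutants to 118680429 in *rhs* siblings, within 1.12-fold. Of the 27423 transcripts 13633 reached 100 in all 4 libraries, and all 8 genes were among them. With 1 library per condition no replicate spread could be measured, so the ratios have no test. A ratio of 2 libraries is given with its 95% Clopper-Pearson interval, which covers counting error only and holds only if the values are counts. The libraries differed by more than counting error, since the SD of the log2 ratios of all 13633 transcripts was 0.73 between the 2 sibling libraries. A transcript was called higher or lower at 1.5-fold or more. The median log2 ratio of all transcripts was -0.11 in *gsp* mutants over siblings and -0.20 in *rhs* mutants over siblings, and relative to these medians each log2 ratio below is higher by that amount. *myo5b*, the gene mutated in *gsp*, stood at the floor of 1 in *gsp* mutants and siblings alike (193 in *rhs* mutants, 87.8 in *rhs* siblings), and cannot serve as a check of the *gsp* labels. In RNA of whole embryos, fewer cells of a type and less RNA per cell cannot be told apart.

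In *rhs* mutants 5 of the 8 genes were at least 2-fold lower than in *rhs* siblings, namely *crx*, *otx5*, *vsx1*, *rcv1* and *rho*, while *atoh7*, *rx1* and *rx2* stayed within 1.5-fold. At 1.5-fold the same 5 genes were lower and 0 were higher, where 11.6% of all transcripts were lower and 6.14% higher. At 2-fold, 1.69% of all transcripts were lower and 2.8% higher. In *gsp* mutants 0 of the 8 genes were past 1.5-fold in either direction, where 4.8% of all transcripts were higher and 4.34% lower (at 2-fold, 1.88% and 0.763%). The shares of all transcripts are given for scale only, since the genes were chosen with earlier results of these data known. The median ratio of the 8 genes was 0.358 in *rhs* mutants over siblings (log2 -1.48) and 0.955 in *gsp* mutants over siblings (log2 -0.07).

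**Figure D1:**
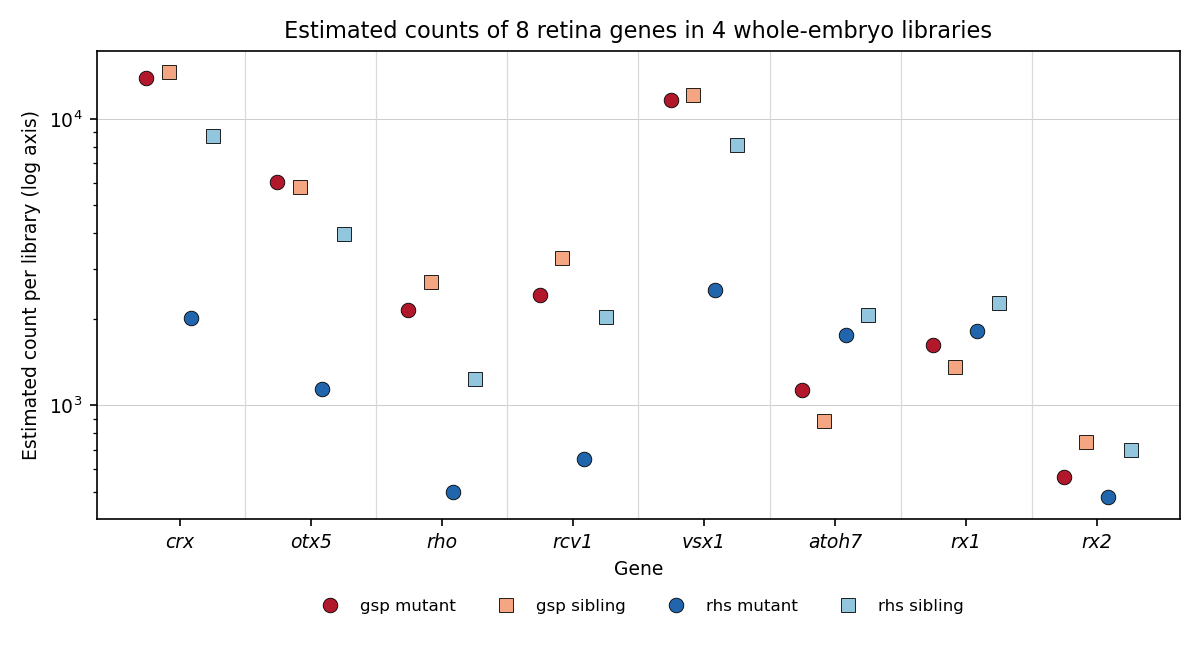
Estimated counts of the 8 genes (log axis) in the *gsp* mutant, *gsp* sibling, *rhs* mutant and *rhs* sibling libraries, 1 point per library. For *crx*, *otx5*, *rho*, *rcv1* and *vsx1* the *rhs* mutant is the lowest of the 4 points, and for *atoh7* and *rx1* both *rhs* libraries lie above both *gsp* libraries.

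*crx* (chr5:38532904-38536605 in danRer7, as are all positions here) encodes the cone-rod homeobox factor that drives photoreceptor differentiation. Its value was 13911 in *gsp* mutants and 14592 in their siblings, and 2014 in *rhs* mutants and 8712 in their siblings. The *rhs* mutant stood far below the other 3 libraries. Its ratio to the *rhs* sibling was 0.231 (0.220 to 0.243), the 7th lowest of 13633. The ratio in *gsp* was 0.953 (0.931 to 0.976), well inside 1.5-fold. The 2 siblings differed as well, by 1.67-fold with *gsp* higher (1.63 to 1.72), and the *gsp* mutant was 6.91-fold above the *rhs* mutant (6.59 to 7.24).

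*otx5* (chr15:46861776-46867163) encodes an Otx factor of photoreceptors that in zebrafish is needed for the rhythmic genes of the pineal organ. It had 6038 in *gsp* mutants and 5766 in their siblings, against 1139.9 in *rhs* mutants and 3983 in their siblings. As for *crx*, the *rhs* mutant was the lowest library. The *rhs* ratio was 0.286 (0.268 to 0.306), the 15th lowest. The *gsp* ratio was 1.05 (1.01 to 1.09), with a counting interval that only just cleared 1. The *gsp* sibling was 1.45-fold above the *rhs* sibling (1.39 to 1.51), within the threshold.

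*rho* (chr8:55706883-55708430) encodes rhodopsin, the visual pigment of rods. Its value was 2155 in *gsp* mutants and 2696 in their siblings, and 497 in *rhs* mutants and 1234 in their siblings. Both *gsp* libraries were above both *rhs* libraries, as they were for *crx*, *otx5*, *rcv1* and *vsx1*. The ratio was 0.403 (0.362 to 0.447) in *rhs*, the 53rd lowest, and 0.799 (0.755 to 0.846) in *gsp*. Of the 8 genes *rho* had the largest excess in *gsp* siblings over *rhs* siblings, 2.19-fold (2.04 to 2.34), beside which the *rhs* mutant was 2.48-fold below its own siblings (2.24 to 2.76).

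*rcv1* (chr16:15663113-15672836) carries an Entrez identifier that RefSeq names *rcvrn2*, a recoverin. Recoverins are the calcium sensors that hold back rhodopsin kinase in photoreceptors. The gene had 2439 in *gsp* mutants and 3264 in their siblings, against 649 in *rhs* mutants and 2036 in their siblings. The *rhs* mutant was again the lowest, and the *gsp* mutant lay between the 2 siblings. Its ratio was 0.319 (0.291 to 0.348) in *rhs*, the 23rd lowest, and 0.747 (0.709 to 0.788) in *gsp*, the lowest *gsp* ratio of the 8 genes. Between the siblings *gsp* was 1.60-fold higher (1.52 to 1.70).

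*vsx1* (chr17:20893556-20896226) encodes the visual system homeobox factor of bipolar cells, the interneurons that carry the photoreceptor signal inward. It had 11619 in *gsp* mutants and 12140.5 in their siblings, and 2523 in *rhs* mutants and 8123 in their siblings. The pattern over the 4 libraries was close to that of *otx5*, with a root mean square difference of 0.07 between their centred log2 values, the smallest of any pair among the 8 genes. The order of the *gsp* libraries differed, since *otx5* was highest in the *gsp* mutant and *vsx1* in the *gsp* sibling. The *rhs* ratio was 0.311 (0.297 to 0.325), the 20th lowest, and the *gsp* ratio was 0.957 (0.933 to 0.982). The *gsp* sibling was 1.49-fold above the *rhs* sibling (1.45 to 1.54), just inside the threshold.

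*atoh7* (chr13:25673589-25674614) encodes the bHLH factor that progenitors need to become ganglion cells. Its value was 1133 in *gsp* mutants and 882 in their siblings, and 1759.7 in *rhs* mutants and 2076.5 in their siblings. In contrast to the 5 genes above, both *rhs* libraries were above both *gsp* libraries. The ratio was 0.847 (0.795 to 0.903) in *rhs* and 1.28 (1.18 to 1.40) in *gsp*. Between the siblings it was 0.425 (0.392 to 0.460) in *gsp* over *rhs*, a larger difference than in either mutant against its own siblings.

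*rx1* (chr22:4640467-4647985) encodes a retinal homeobox factor of progenitors and photoreceptors. It had 1627 in *gsp* mutants and 1364.5 in their siblings, against 1818 in *rhs* mutants and 2274 in their siblings. The order of the 4 libraries was that of *atoh7*. The ratio was 0.800 (0.751 to 0.851) in *rhs* and 1.19 (1.11 to 1.28) in *gsp*, and 0.600 (0.560 to 0.642) between the siblings, *gsp* over *rhs*.

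*rx2* (chr2:56046514-56067030), a second retinal homeobox gene, encodes a factor that in medaka marks the stem cells at the rim of the retina. Its value was 563 in *gsp* mutants and 747 in their siblings, and 478 in *rhs* mutants and 699.6 in their siblings. Both mutants were below both siblings, which held for none of the other 7 genes. The ratio was 0.683 (0.607 to 0.768) in *rhs*, close to the threshold and inside it, and 0.754 (0.674 to 0.842) in *gsp*. The siblings were 1.07-fold apart with an interval that held 1 (0.961 to 1.18), and this was the only pair of neighbours in the order of levels of any of the 8 genes whose counting interval did so.

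**Figure D2:**
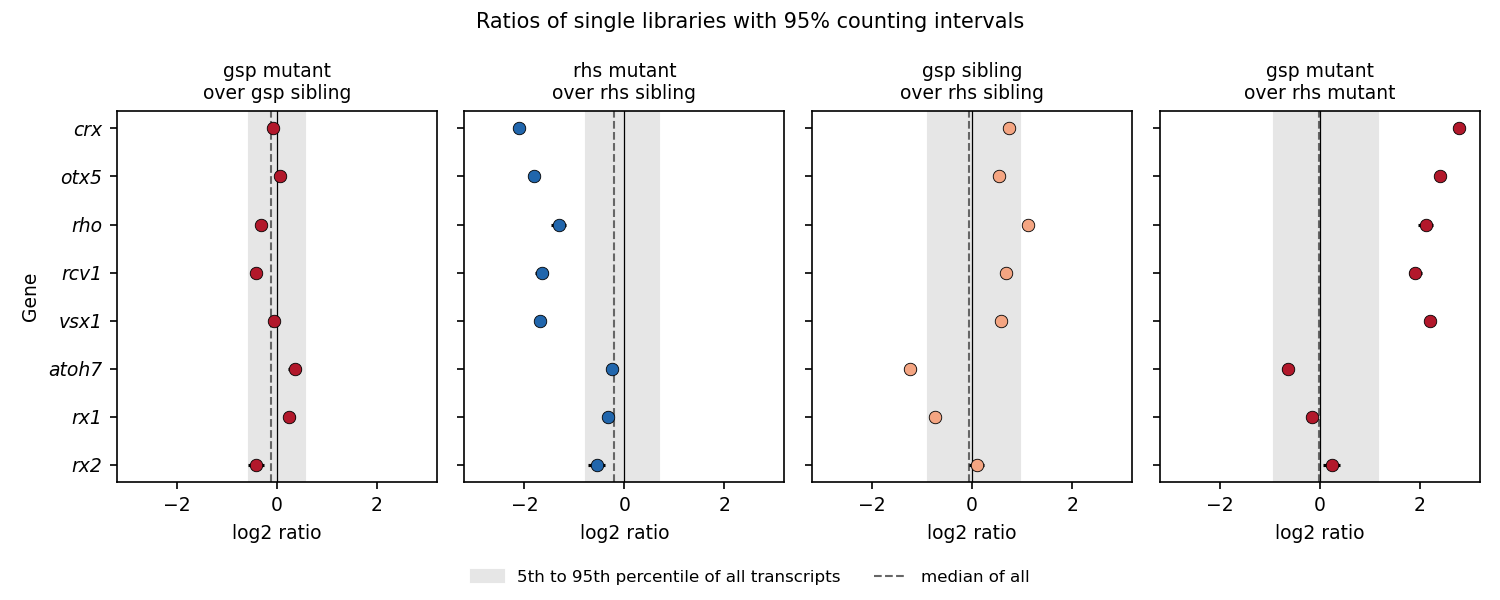
Log2 ratios of the 8 genes in 4 comparisons of single libraries, with 95% counting intervals as bars (often shorter than the point). The grey band spans the 5th to 95th percentile of the 13633 transcripts and the dashed line is their median. In *rhs* mutants over siblings *crx*, *otx5*, *rho*, *rcv1* and *vsx1* lie left of the band, and in *gsp* mutants over siblings all 8 genes lie inside it.

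The difference between the lines was examined for each gene. Between the siblings, in which no mutant is compared, 3 of the 8 genes were higher in *gsp* than in *rhs* (*crx*, *rho* and *rcv1*) and 2 were lower (*atoh7* and *rx1*), where 8.58% of all transcripts were higher and 9.15% lower. With ratios centred on the median of all transcripts, or with TMM scaling, *otx5* and *vsx1* passed 1.5-fold as well and 5 genes were higher. The shares of all transcripts that were higher were then 9.54% and 9.56%. Between the mutants, the 5 genes that were low in *rhs* mutants were between 3.76-fold and 6.91-fold higher in *gsp*, and *atoh7* was lower with a ratio of 0.644 (0.597 to 0.694), where 13.6% of all transcripts were higher and 10.2% lower. At 2-fold, *rho* was higher and *atoh7* lower between the siblings (4.83% and 4.19% of all transcripts), and between the mutants 5 genes were higher and 0 lower (6.41% and 4.17%). The median log2 ratio of the 8 genes was 0.56 between the siblings and 2.01 between the mutants, against -0.06 and -0.01 for all transcripts. These comparisons share libraries with those of mutants over siblings and are not independent of them. The line difference, clutch and library cannot be told apart.

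The *gsp* log2 ratio minus the *rhs* log2 ratio was positive for all 8 genes. It was 2.04 for *crx*, the 9th highest of 13633, then 1.87 for *otx5*, 1.62 for *vsx1*, 1.23 for *rcv1* and 0.99 for *rho*. For *atoh7* it was 0.60, for *rx1* 0.58 and for *rx2* 0.14. The value of *rx2* was the 5713th highest of 13633, so a positive sign by itself was common among all transcripts. Thus *rx2* was the gene whose ratio was most alike in the 2 lines. No replicate spread exists against which these differences could be tested.

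**Figure D3:**
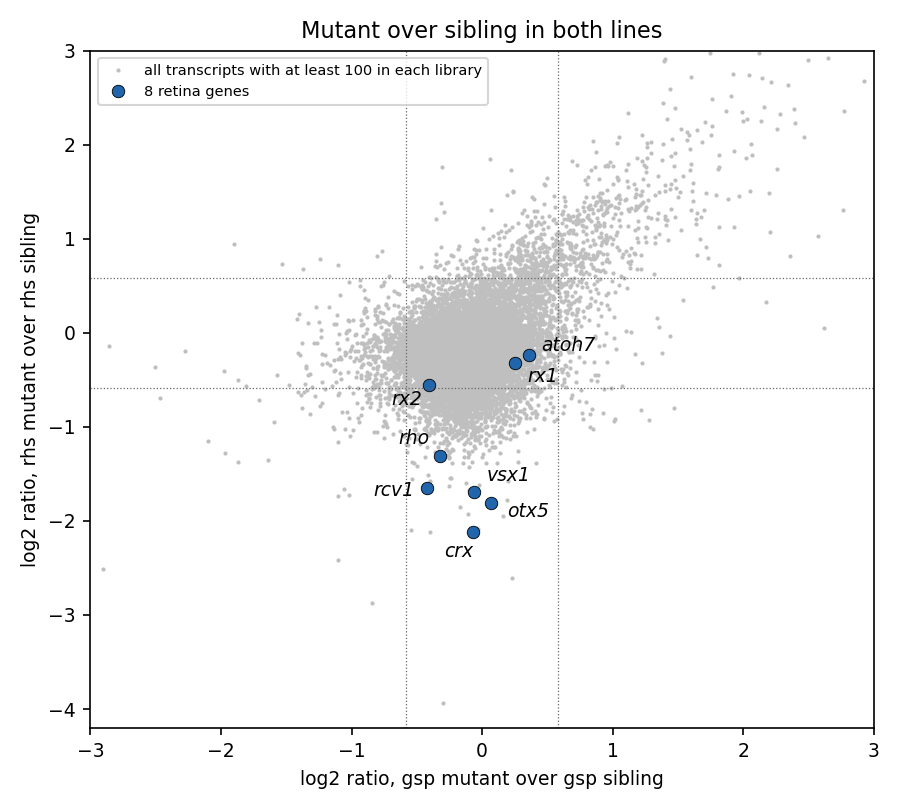
Log2 ratio of *rhs* mutant over sibling (vertical) against *gsp* mutant over sibling (horizontal) for the 13633 transcripts (grey, of which 35 lie outside the axes) and the 8 genes (blue). Dotted lines mark 1.5-fold. *crx*, *otx5*, *vsx1*, *rcv1* and *rho* lie below the lower line and between the vertical ones, with *rhs* log2 ratios from -2.11 to -1.31.

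The limits that the study set on a transcript, siblings alike (here within 1.5-fold) and mutants within 2-fold of each other, kept 10963 of 13633 transcripts. Of the 8 genes they kept *rx2* alone. *crx*, *rho* and *rcv1* failed on both the siblings and the mutants, with mutant differences of 6.91-fold, 4.34-fold and 3.76-fold. *atoh7* and *rx1* failed on the siblings alone. *otx5* and *vsx1* failed on the mutants alone, with 5.30-fold and 4.61-fold differences. The siblings of *vsx1*, 1.49-fold apart, were within the limit only because it was rounded up to 1.5-fold.

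Other genes of light detection were counted from lists, and many were near the floor. For scale beside all list counts, 11.6% of all transcripts were lower and 6.14% higher in *rhs* mutants. After centring these shares were 4.67% and 9.74%. In *gsp* mutants 4.34% were lower and 4.8% higher, or 2.62% and 6.32% after centring. Between the siblings 9.15% were lower and 8.58% higher in *gsp*. Of 8 cone opsin transcripts, the visual pigments of cones, 7 were below 100 in at least 1 library, with values from 1 to 207. The highest of these 7 was the ultraviolet opsin *opn1sw1*, with 134 in *gsp* mutants and 207 in their siblings, and 14.7 in *rhs* mutants and 49.2 in their siblings. The blue, green and red opsin transcripts *opn1sw2*, *opn1mw1*, *opn1mw2*, *opn1mw3*, *opn1mw4* and *opn1lw1* had at most 91.2. The other red opsin *opn1lw2* had 501.7 in *gsp* mutants and 791 in their siblings, and 129.5 in *rhs* mutants and 176 in their siblings. Like *rho* it was higher in both *gsp* libraries, by 4.50-fold between the siblings (3.81 to 5.32). Its ratio was 0.634 (0.566 to 0.711) in *gsp* mutants over siblings and 0.736 in *rhs* mutants over siblings. All 8 opsin transcripts summed to 811 in *gsp* mutants and 1264 in their siblings, and to 237 in *rhs* mutants and 329.9 in their siblings.

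A list of 57 genes of phototransduction and the outer segment matched 37 transcripts, of which 14 had at least 100 in each library. Of these 14, 6 were lower and 0 higher in *rhs* mutants (median log2 -0.53), 4 of them also after centring on all transcripts. In *gsp* mutants 2 were lower and 0 higher (median log2 -0.33), namely *pde6c*, the catalytic subunit of the cone phosphodiesterase, at 0.594 (0.481 to 0.727), and the arrestin gene *sagb* at 0.634 (0.593 to 0.677), of which *pde6c* alone stayed past 1.5-fold after centring. The transducin beta gene *gnb3a* had 4750.1 in *gsp* mutants and 5835 in their siblings, and 188 in *rhs* mutants and 2889.6 in their siblings. Its *rhs* ratio of 0.0652 (0.0558 to 0.0754) was the lowest of all 13633 transcripts. Between the siblings 5 of the 14 were higher in *gsp* and 0 lower, among them the transducin gamma genes *gngt2a* and *gngt1* at 2.13-fold and 1.71-fold, and *gnb3a* at 2.02-fold. The 23 transcripts that were below 100 in a library are not in these counts. All 37 together summed to 26981 in *gsp* mutants and 33110 in their siblings, and to 14985 in *rhs* mutants and 23740.2 in their siblings.

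Other transcription factors of photoreceptors were lower in *rhs* mutants along with *crx* and *otx5*. Of 11 transcripts of 10 genes, 8 were lower and 1 higher (median log2 -0.76), or 5 and 1 after centring. *six7*, a regulator of cone opsin genes in zebrafish, had 552 in *rhs* mutants and 2133 in their siblings, a ratio of 0.259 (0.235 to 0.284). *nr2e3*, a nuclear receptor of photoreceptor precursors, had 816 in *rhs* mutants and 1997 in their siblings, a ratio of 0.409 (0.376 to 0.444). The transcript that was higher was *prdm1a*, with 5630.3 in *rhs* mutants and 2929 in their siblings. It also acts in other tissues such as muscle and neural crest. The lower genes of the list are not confined to photoreceptors either, and *otx2* among them is also a forebrain factor. In *gsp* mutants 0 of the 11 were past 1.5-fold (median log2 0.10). Between the siblings 2 were higher in *gsp*, *nr2e3* (1.57-fold) and *prdm1a* (1.55-fold), and 2 were lower, both transcripts of the retinoid receptor *rxrga* (ratios 0.382 and 0.478).

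The relatives of the Otx and Rx genes were looked at apart. *rx3*, which specifies the eye field in fish, had 642 in *gsp* mutants and 529 in their siblings, and 185 in *rhs* mutants and 442 in their siblings, a ratio of 0.418 (0.351 to 0.498) in *rhs*. It therefore had the *rhs* mutant as its lowest library, unlike *rx1*. *otx2*, the forebrain and photoreceptor factor that acts above *crx*, had 5642 in *rhs* mutants and 10044.7 in their siblings, a ratio of 0.562 (0.544 to 0.580). *otx1a* and *otx1b* stayed within 1.5-fold in *rhs* mutants, and the median log2 ratio of the 4 relatives was -0.65 in *rhs* and 0.11 in *gsp*.

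Genes of the other retinal cells were lower in *rhs* mutants in large part, all but *bhlhe23* by less than *crx*. Of 23 transcripts of the eye field and retinal progenitors, 12 were lower and 0 higher (median log2 -0.59), 7 and 0 after centring, led by *rx3* and *foxd1*, which marks the temporal retina, with 1519.8 in *rhs* mutants and 3089 in their siblings. Of 9 ganglion cell transcripts 7 were lower and 0 higher (median log2 -0.79), 5 and 0 after centring. Of all transcripts 11.6% were lower and 6.14% higher in *rhs* mutants, or 4.67% and 9.74% after centring. The ganglion cell factors *isl2b* and *pou4f2* had ratios of 0.465 (0.429 to 0.505) and 0.468 (0.444 to 0.493), while *atoh7*, which acts before them, was at 0.847. Of 14 transcripts of amacrine, horizontal and bipolar cells, 9 were lower and 0 higher (median log2 -0.76), 7 and 0 after centring. The bipolar and amacrine factor *bhlhe23* was the lowest of these with 367 in *rhs* mutants and 1599 in their siblings, a ratio of 0.230 (0.204 to 0.257), and *prox1*, a horizontal cell factor, had 2049 and 4289 in the same libraries. Many of these genes are also active in the brain.

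In *gsp* mutants 0 of the transcripts of these 3 lists were past 1.5-fold (1 was higher after centring), and the 3 medians were between -0.05 and -0.04 on the log2 scale. The siblings differed by 1.5-fold or more in few of them. In *gsp* siblings over *rhs* siblings *nr2e1*, a progenitor gene, was at 0.567, the glycine transporter gene *slc6a9* at 0.394, *foxn4* and *onecut1*, both of amacrine and horizontal precursors, at 0.660 and 0.666, and the ganglion cell adhesion gene *alcama* at 1.64.

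In the lists for support cells the medians in *rhs* mutants were nearer to that of all transcripts. Genes of these lists are not confined to the retina, so their values in whole embryos are not those of retinal cells alone. Of 8 transcripts of Muller glia, the glia of the retina, 2 were lower in *rhs* mutants, *rlbp1a* (0.560) and *slc1a2b* (0.631), with a median log2 ratio of -0.17, near that of all transcripts. Their sum was 418974 in *rhs* mutants and 371839 in their siblings, most of it *apoeb*. Between the siblings the glutamate transporter gene *slc1a3a* was at 0.360 in *gsp* over *rhs*. Of 13 transcripts of pigment epithelium and visual cycle, 3 were lower in *rhs* mutants and 0 after centring (median log2 -0.32), among them *rlbp1b* (0.603) and the retinoid isomerase gene *rpe65a* (0.628). In *gsp* mutants *lrata*, which esterifies retinol, was lower at 0.440 (0.410 to 0.471) and the pigment gene *slc45a2* higher at 1.51 (1.45 to 1.57). Between the siblings *oca2*, a pigment gene, was 3.93-fold higher in *gsp* and *lrata* was at 0.456.

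The next 3 lists were set up for cells outside the retina. RNA of whole embryos does not show in which cells a transcript was made. Of 8 pineal transcripts found, 3 had at least 100 in each library, and of these *bsx*, a pineal and hypothalamic factor, was lower in *rhs* mutants at 0.543 (0.458 to 0.640). The enzyme of melatonin synthesis *aanat2* had 2595 in *gsp* mutants and 2771 in their siblings, and 175 in *rhs* mutants and 248 in their siblings, an 11.2-fold difference between the siblings (9.81 to 12.8). *tph1b* was at 0.581 in *gsp* over *rhs* siblings. The sum of the 8 was 3865 in *gsp* mutants and 3964 in their siblings, and 1232 in *rhs* mutants and 1296 in their siblings. In *rhs* the sum includes *tph1a*, with 219 in *rhs* mutants and 96.6 in their siblings, and *tph1b*, with 522 in *rhs* mutants and 431 in their siblings, while *aanat2*, *bsx* and *aanat1* had ratios of 0.704, 0.543 and 0.744. The median log2 ratio of the 3 pineal transcripts with at least 100 in each library was -0.51 in *rhs* and 0.27 in *gsp*. The part of pineal cells in the values of *otx5* and *crx* was not tested.

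Lens genes were lower in both mutants. Of 10 lens transcripts 8 were lower in *gsp* mutants (median log2 -0.81), 7 after centring, and 7 in *rhs* mutants (median log2 -0.67), 2 after centring, with 0 higher in either. Of all transcripts 4.34% were lower in *gsp* mutants (2.62% after centring) and 11.6% in *rhs* mutants (4.67% after centring). *hsf4*, a heat shock factor of lens fibres, was at 0.504 times its sibling level in *gsp* (0.440 to 0.578) and at 0.489 times in *rhs* (0.433 to 0.552). The fibre membrane gene *lim2.4* was at 0.541 in *gsp*, and *pitx3*, a factor of early lens, at 0.574 in *rhs*. The lens sum was 119133 in *gsp* mutants and 194956 in their siblings, and 136892 in *rhs* mutants and 220009.0 in their siblings. In the same *gsp* comparison *rho* (0.799), *rcv1* (0.747) and *rx2* (0.754) were below 1 as well, *crx*, *otx5* and *vsx1* were within 1.05-fold of their siblings, and *atoh7* and *rx1* were above 1.

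Genes listed for neural progenitors outside the retina stayed within 1.5-fold in *rhs* mutants, and a retinal share of their RNA cannot be told apart. Of 14 such transcripts 0 were past 1.5-fold there (median log2 -0.03), and 4 were below the median of all transcripts. Their sum was 140108 in *rhs* mutants and 169023 in their siblings, a ratio of 0.829. The largest part of it was *fabp7a*, with 63011 in *rhs* mutants and 89365 in their siblings, a ratio of 0.705. In *gsp* mutants 3 were higher and 0 lower (median log2 0.10), or 4 and 0 after centring, among them both *notch1a* transcripts (the first at 1.88-fold, 1.59 to 2.22, the second at 1.56-fold) and the proneural gene *ascl1a* (1.72-fold, 1.63 to 1.81). *atoh7*, a proneural gene of the retina, was at 1.28 in the same comparison. Between the siblings 5 of the 14 were lower in *gsp*, including 1 of the 2 *notch1a* transcripts (0.474; the other was at 1.42), *neurog1* (0.580) and *dla* (0.581), and *nes* was higher (2.16-fold). *atoh7*, at 0.425, was lower in *gsp* siblings along with these 5, and their part in its values was not tested.

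**Figure D4:**
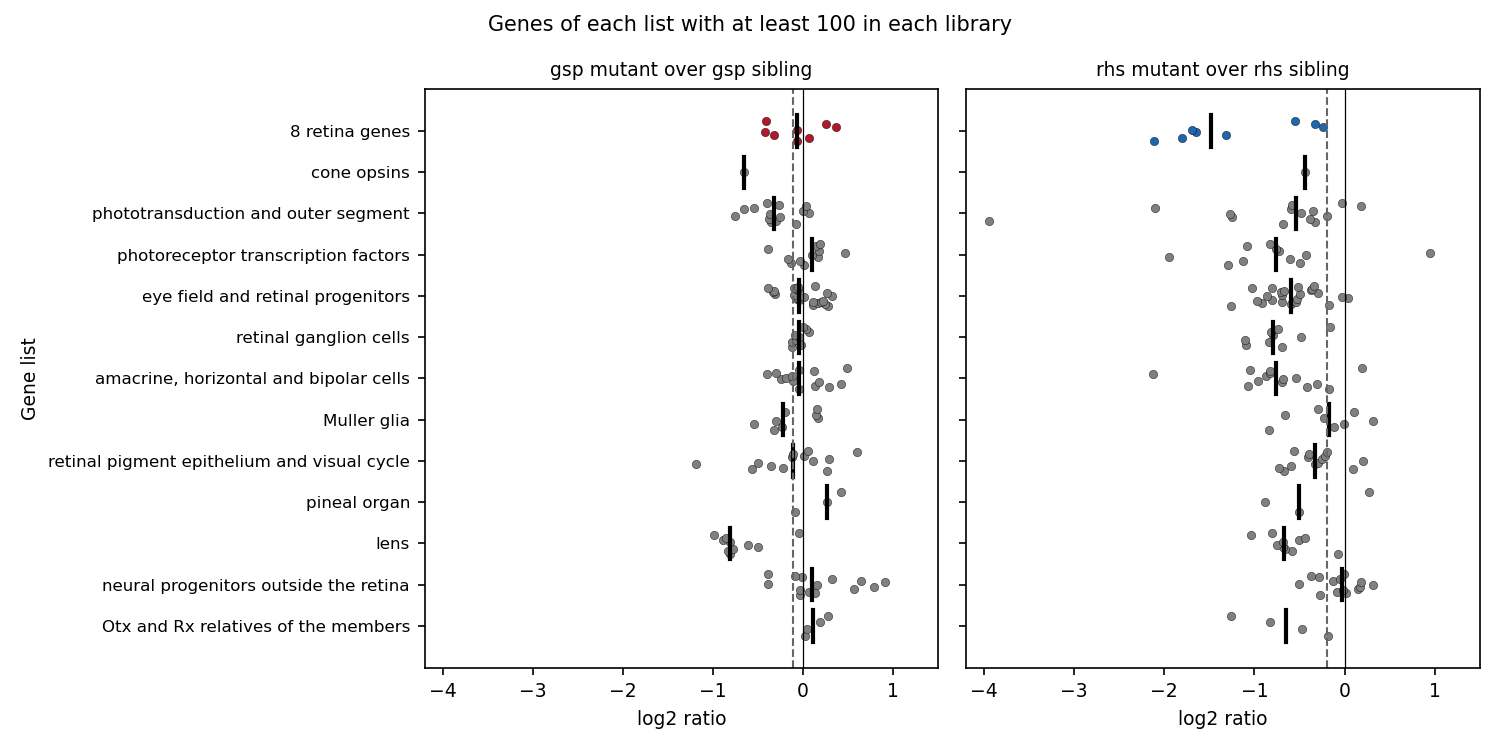
Log2 ratio of mutant over sibling in *gsp* (left) and *rhs* (right), 1 point per transcript with at least 100 in each library, for the 8 genes (coloured) and 12 gene lists (grey). Black bars are list medians and the dashed line is the median of all 13633 transcripts. In *rhs* the 8 genes have a median of -1.48 and every list median lies between -0.79 and -0.03, and in *gsp* the lens list is the lowest, at -0.81.

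The transcripts whose levels over the 4 libraries were most like those of each gene were found by the root mean square difference of log2 values, each centred on its own mean, with the 8 genes themselves left out of the search. This is a description over 4 libraries, with no test. Outside the 8 genes, nearest to *crx* was *syt5b*, a synaptotagmin gene of vesicle release, with 2602 in *gsp* mutants and 2685 in their siblings, and 405 in *rhs* mutants and 1704 in their siblings (difference 0.05), followed by *stxbp1b* (0.16) and *bhlhe23* (0.21). Nearest to *otx5* were *stxbp1b* (0.10), *six7* (0.10) and *syt5b* (0.14). For *vsx1* they were the G protein gamma gene *gng13b* (0.12), *six7* (0.13) and *zwi* (0.14), and for *rcv1* *gng13b* (0.08), *pcp4l1* (0.13) and *zwi* (0.16). *rho* was most like *gngt2a*, the cone transducin gamma gene (0.03), which had 1132 in *gsp* mutants and 1356 in their siblings, and 267 in *rhs* mutants and 636 in their siblings, and then like *lrrc4b* (0.13) and *rnf24* (0.13).

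The genes *atoh7*, *rx1* and *rx2* had other neighbours. *atoh7* was most like *peli1b* (0.08), *znf451* (0.09) and *med13* (0.09), and *rx1* like *prkcz* (0.03), the Wnt receptor gene *fzd5* (0.04) and *parp1* (0.04). *rx2* was most like *tfap2a* (0.01), a factor of epidermis and neural crest, with 15138 in *gsp* mutants and 19640.0 in their siblings, and 12614 in *rhs* mutants and 18665 in their siblings, and then like *cfl2l* (0.02) and *hprt1l* (0.03). The median profile of all 8 genes was nearest to *gng13b* (0.05), *zwi* (0.12) and *nr2e3* (0.14).

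The 8 genes lie on 8 different chromosomes, and no other transcript of the table overlaps any of them. By the deposited gene ontology terms, 6 of the 8 are described as DNA binding, namely *crx*, *otx5*, *vsx1*, *atoh7*, *rx1* and *rx2*, and 3 as taking part in visual perception, namely *crx*, *rho* and *vsx1*. The 5 that were lower in *rhs* mutants include both kinds, with 3 DNA binding factors and the 2 genes *rho* and *rcv1* of the light response.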

How the data were processed

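RNA of pooled whole zebrafish embryos was sequenced in 4 libraries, 1 per condition. The authors trimmed paired reads with FastX, aligned them to danRer7 (submitters' processing notes) with TopHat and computed a value per transcript with DEGseq. These deposited values are RPKM by the paper and raw by the table heading, and are floored at 1. They were read here as estimated counts, following the heading. Library totals ran from 106188690 in *gsp* mutants to 118680429 in *rhs* siblings, a size that goes with read counts rather than RPKM. The rank correlation of value with gene span lay between -0.026 and 0.020 in the 4 libraries and favoured neither unit. The exact unit was not established beyond this, and every counting interval rests on the count reading. The plan had assumed RPKM-type values, and a ratio of 2 libraries is computed in the same way under either. If the values are counts, the unscaled ratios also carry the difference in library totals, which was within 1.12-fold. The authors also deposited log2 normalized values, shifted per library and centred per transcript, used as an alternative only, and tables of their own fold changes, which were not used.

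Ratios were computed unscaled with a minimum of 100 in each library (Python 3.11.15, pandas 2.3.3, scipy 1.17.1) and the authors' fold limit rounded to 1.5. Intervals are exact Clopper-Pearson at 95% on rounded values and cover counting error only. No test was run. TMM factors came from edgeR 4.0.16 in R 4.3.3. The code was tested on simulated data. The text names the 8 genes, and from each of 12 lists up to 4 transcripts with the largest log2 ratio between the siblings and up to 2 per mutant over sibling among those past 1.5-fold, every cone opsin, and the 3 transcripts nearest in profile to each gene. *apoeb*, *otx1a*, *otx1b* and the rise of *prdm1a* were added after values were seen. Also named outside this rule were *tph1a*, *aanat1*, *fabp7a*, the second *notch1a* transcript and the *rhs* comparison of *tph1b* and *aanat2*. One result that the rule would name is not reported here. The genes and lists were chosen with earlier results of these data known. No sequences are shown.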

Additional observations from a re-analysis of the deposited data

Results flagged for a closer look

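The log2 ratio of mutant over sibling had opposite signs in the 2 lines for *otx5*, *atoh7* and *rx1*, with counting intervals that cleared 1 in both. In each line 1 mutant and 1 sibling library stand for the group, and the difference was not tested. For *otx5* the ratio was 1.05 in *gsp* and 0.286 in *rhs*, a *gsp* minus *rhs* difference of 1.87 on the log2 scale. For *atoh7* it was 1.28 in *gsp* and 0.847 in *rhs*, a difference of 0.6, and for *rx1* 1.19 in *gsp* and 0.800 in *rhs*, a difference of 0.58. Relative to the median of all transcripts *atoh7* was at 0.47 in *gsp* and -0.04 in *rhs* on the log2 scale, and *rx1* at 0.36 and -0.12. With the other line's sibling as control, both signs turned for *atoh7* (ratio 0.546 in *gsp*, 1.99 in *rhs*) and *rx1* (0.716 and 1.33). Those of *otx5* did not (1.52 and 0.198).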

How the results depend on the processing

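The count of 5 genes lower in *rhs* mutants held with median centring, TMM, library totals, pseudocounts of 10 and 100, the authors' normalized columns and a threshold of 2-fold, and was 6 against the *gsp* sibling and against the 2 siblings averaged. Under the study's limits, which keep *rx2* alone, it was 0, as were both sibling counts and both mutant counts. Of all transcripts in *rhs* mutants, 4.67% were lower with centring, 5.18% with TMM, 8.81% with library totals and 5.38% in the authors' columns. Against the other line's sibling, *gsp* mutants had 3 genes higher and 1 lower, and *rhs* mutants 1 higher, *atoh7* at 1.99 times the *gsp* sibling. *crx* in *gsp* mutants was then at 1.60 and *atoh7* at 0.546. Shares of all transcripts were not counted for controls that used the other line's sibling. Between the siblings 5 genes were higher with median centring and with TMM (9.54% and 9.56% of all transcripts), and 1 higher and 1 lower at 2-fold. Between the mutants 0 were lower with library totals and at 2-fold. The log2 ratios of *crx* and *vsx1* in *gsp* changed sign with centring, staying between -0.07 and 0.06. Over all transcripts in *rhs*, 837 were higher and 1586 lower unscaled, against 1328 and 636 after centring, and in *gsp* 654 and 591 against 862 and 357. The 12 lists together had 55 transcripts lower in *rhs* mutants, against 32 with centring or TMM. These counts are over list transcripts with at least 100 in each library, whose number is given list by list above. Their total was not counted, so the lists have no share to compare with that of all transcripts. Of all transcripts 11.6% were lower unscaled, 4.67% with centring and 5.18% with TMM. With a minimum of 1000 in each library 34 were lower, but fewer transcripts of the lists reach that minimum. Of 224 single-gene values under other settings, 132 moved by less than their counting interval and 92 by more, and 0 of the genes past 1.5-fold changed sign. No paired analysis was possible because each group has 1 library, and for the same reason no library could be left out. Depth limits only the low transcripts, such as most cone opsins.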

Other observations

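Some transcripts of the lists differed far more between the lines than between mutant and sibling, and were chosen after their values were seen. The retinal guanylate cyclase gene *gc3* had 753 in *gsp* mutants and 904 in their siblings, and 22.9 in *rhs* mutants and 33.2 in their siblings. The pineal opsin gene *exorh* had 123 in *gsp* mutants and 161 in their siblings and was at the floor of 1 in both *rhs* libraries, so that it was at least 53.8-fold higher in the *gsp* sibling, taking 3 counts per library as the limit for a value at the floor. The guanylate cyclase activator gene *guca1d* had 127 in *gsp* mutants and 169 in their siblings, and 3.61 in the *rhs* mutant and the floor value of 1 in the *rhs* sibling. These 3 share the direction of *rho*, *crx* and *rcv1* between the siblings, but that direction came with the choice. Other transcripts of the lists went the other way, such as *slc1a3a* at 0.360 and *slc6a9* at 0.394 in *gsp* over *rhs* siblings.

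The annotation term for visual perception, also chosen after values were seen, is carried by 47 transcripts, of which 17 had at least 100 in each library. Leaving out *crx*, *rho* and *vsx1*, 14 remain, of which 5 were lower and 1 higher in *rhs* mutants (median log2 -0.46), and 1 lower and 1 higher in *gsp* mutants (median log2 -0.31). Of all transcripts 11.6% were lower and 6.14% higher in *rhs* mutants, and 4.34% and 4.8% in *gsp* mutants. Counts after centring were not made for this term. The lowest in *rhs* mutants was the phosphodiesterase gamma gene *pde6g*, with 1859 in *rhs* mutants and 4469 in their siblings. The other lower ones were nearer to the threshold, *slc17a6b* at 0.601, *cryaa* at 0.621, *pde6d* at 0.648 and *rgra* at 0.664. *pde6g*, *cryaa* and *rgra* are also in the lists above. The one that was higher was *gprc5c*, an orphan receptor, with 421 in *rhs* mutants and 177 in their siblings.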
